A study of Drosophila melanogaster with 11 samples.

Results

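The mitochondrial ribosomal proteins are described here across 4 exposure groups of adult fly heads. They were taken as the probe sets whose single gene symbol begins with mRpL (large subunit) or mRpS (small subunit) followed by a digit. The rule found 71 probe sets for 69 genes among the 18952 probe sets of the array table, where 11981 genes have a probe set of their own. By name, 45 of these probe sets for 44 genes were counted as large subunit and 26 probe sets for 25 genes as small subunit. The small subunit counts thus include mRpS30 and mRpS18A, whose mammalian relatives sit in the large subunit. All 71 reached log2 4 on at least 2 arrays and were among the 9104 probe sets tested. tko, the fly gene for mitochondrial S12, lies outside the symbol rule and is given apart.

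Every fly was a Drosophila melanogaster female of the w1118 strain, aged up to 24 hours after eclosion at the start, and each array, labelled a biological replicate, measured RNA pooled from the heads of 20 females of a vial. The joint exposure (3 arrays) began with 10 days on nicotine at 0.1 mg/ml, followed by 6 days on both nicotine and 5 mM paraquat. The paraquat group (2 arrays, replicates 2 and 3) had plain food for 10 days and 5 mM paraquat for 6 days. The nicotine group (3 arrays) had 0.1 mg/ml nicotine for all 16 days, and the control group (3 arrays) had plain food for 16 days. The design thus allows the paraquat response to be compared with and without nicotine.

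Mitochondrial ribosomes translate the few proteins encoded by mitochondrial DNA, which are core subunits of the respiratory chain and ATP synthase. Their own proteins are all encoded in the nucleus of animals, made in the cytosol and imported. Some descend from bacterial ribosomal proteins and keep the bacterial number, while those with higher numbers were mostly added during the evolution of mitochondria. Paraquat is a herbicide that cycles between oxidised and reduced states and produces superoxide, in part inside mitochondria. Nicotine activates nicotinic acetylcholine receptors, the main excitatory receptors of the insect brain.

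Values are GCRMA log2 values, so a difference of 1 is 2-fold. A whole head mixes many cell types, and fewer cells of a type cannot be told apart from less RNA per cell. Averaged over its correlations with the other arrays, joint replicate 1 had an r of 0.914 and control replicate 3 one of 0.943, the lowest 2 of the 11 arrays, while the rest reached up to 0.965. Both arrays also stood apart for this gene family. Head markers were measured on every array: trp of photoreceptors lay between 13.54 and 14.72. A probe set of each of elav, nSyb, repo, Gs2 and Lsp2 was above log2 4 throughout. Of 6 neuronal marker probe sets, 4 were tested and 2 stayed below log2 4 on every array.

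Joint replicate 1 held the lowest value of all 11 arrays for 52 of the 71 family probe sets (73.2%), while it held the lowest value for 25.9% of all probe sets tested. The median family member lay 0.69 log2 units below the median of the other 10 arrays there (a difference of -0.69), against -0.03 over all probe sets. On that array 63 members were below the others' median and 22 were at least 2-fold below it. Control replicate 3 went the other way and held the highest value for 31 members (43.7%, against 20.9% of all probe sets). This was not particular to the family: 34 of 63 nuclear oxidative phosphorylation probe sets (54.0%) were also highest there. So were 11 of 33 for cytosolic ribosomal proteins (33.3%), but 0 of 13 for mitochondrial aminoacyl-tRNA synthetases. On paraquat replicate 3, 0 of the 71 members fell below their own mean over the arrays, and the share over all probe sets was not computed. The median deviation from that mean was 0.24 for the family and 0.07 over all probe sets. The members' means include the low values of joint replicate 1.

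**Figure D1:**
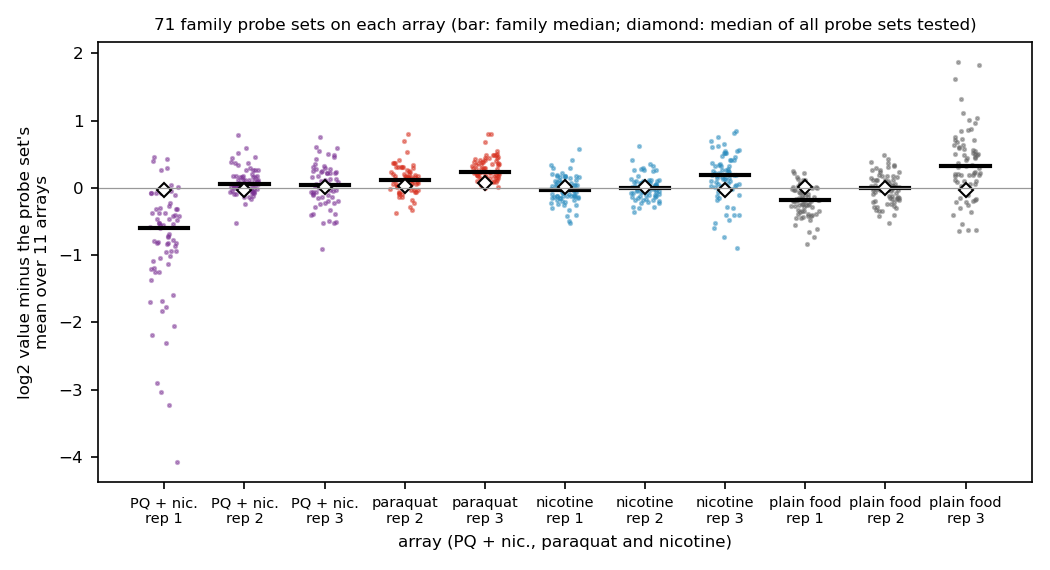
Each point is 1 of the 71 family probe sets on 1 array, as its log2 value minus its mean over the 11 arrays; bars are family medians and diamonds the medians of all probe sets tested. Joint replicate 1 has a family median of -0.60 and control replicate 3 one of 0.33, while the diamonds stay between -0.04 and 0.07.

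The low values of joint replicate 1 were uneven across the ribosome. mRpL18, related to the bacterial protein that binds 5S ribosomal RNA, had 4.02, 8.48 and 7.60 in joint heads, 8.46 and 8.58 in paraquat heads, 8.67, 8.18 and 8.60 in nicotine heads, and 7.89, 8.58 and 9.91 in control heads. The first of those joint values lies far below the other 10, and the group ranges otherwise overlap. mRpL43, a protein without a bacterial counterpart, had 5.25, 8.46 and 7.77 in joint heads, 8.48 and 8.72 in paraquat heads, 8.62, 8.29 and 8.22 in nicotine heads, and 8.44, 8.71 and 10.15 in control heads. Here too joint replicate 1 was lowest and control replicate 3 highest.

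In the small subunit, mRpS34 had 5.97, 9.54 and 8.68 in joint heads, 9.50 and 9.68 in paraquat heads, 9.49, 9.29 and 9.82 in nicotine heads, and 9.45, 9.46 and 10.31 in control heads. mRpS25 had 7.98, 11.35 and 9.98 in joint heads, 11.69 and 11.34 in paraquat heads, 11.31, 11.51 and 10.48 in nicotine heads, and 11.11, 11.26 and 11.75 in control heads. For both genes the other joint arrays overlapped at least 1 other group. The gap of joint replicate 1 to the median of the other arrays was -4.51 for mRpL18, -3.52 for mRpS34, -3.34 for mRpS25 and -3.22 for mRpL43. It was -2.52 for mRpL17, whose bacterial relative sits at the exit of the peptide tunnel, and -2.26 and -2.24 for mRpS17 and mRpS16 of the small subunit body. Against this trend, mRpL32 (0.57), mRpS30 (0.49), mRpS31 (0.44), mRpL38 (0.40) and mRpL15 (0.25) were above the others' median on the same array.

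By position in bacterial and mammalian ribosomes, the 5 members around the peptidyl transferase centre (mRpL2, mRpL3, mRpL4, mRpL16 and mRpL27), where peptide bonds form, had a median gap of -1.73 on joint replicate 1. A group of 5 around the tunnel exit (mRpL17, mRpL22, mRpL23, mRpL24 and mRpL45) had a median gap of -0.89, with a range of -2.52 to 0. mRpL47, whose bacterial relative is also at the tunnel exit, was not counted in that group. The 3 proteins of the small subunit body (mRpS5, mRpS16 and mRpS17) had a median gap of -2.24, with a range of -2.26 to -0.42. The 3 of the head (mRpS7, mRpS9 and mRpS14) had one of -1.20. The 3 stalk proteins mRpL10, mRpL11 and mRpL12, which in bacteria recruit the translation factors, had one of -0.89. The 7 probe sets of platform proteins as placed by their bacterial relatives, for mRpS6, mRpS11, mRpS18A, mRpS18B, mRpS18C and mRpS21, had one of -0.56; in mammals the relative of mRpS18A sits in the large subunit. These position groups hold few genes and describe this array only.

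Other gene lists were compared on the same array. tko had 7.56, 10.10 and 9.88 in joint heads, 10.14 and 10.27 in paraquat heads, 10.23, 10.06 and 10.44 in nicotine heads, and 9.80, 9.93 and 11.05 in control heads, a gap of -2.56. The 63 tested probe sets of nuclear oxidative phosphorylation genes had a median gap of -0.44, and 46 of them were lowest on joint replicate 1. The 33 probe sets of cytosolic ribosomal proteins had a median gap of -0.26 with 22 lowest there. The 13 mitochondrial aminoacyl-tRNA synthetases, the enzymes that charge tRNAs, had 2 lowest there, and their median gap was close to 0 (-0.0018). The 8 translation factors were all below the others' median (median gap -0.49), while 1 of the 5 probe sets of mitochondrial gene regulators was (median gap 0.48).

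Cell type markers also stood apart on that array. Among the head's own tissues, 4 of 4 glial probe sets were below the others' median (median gap -0.69, as for the family), 3 of 4 neuronal ones (-0.57) and 4 of 4 muscle ones (-0.41). The photoreceptor gene trp had a gap of -0.08 and the 4 haemocyte probe sets a median of 0.01. As log2 of the summed level, the glial list lay between 13.24 and 13.88 in joint heads, 13.65 and 13.91 in paraquat heads, 13.47 and 14.12 in nicotine heads, and 13.76 and 14.03 in control heads. The neuronal list lay between 11.81 and 12.35 in joint heads, 12.23 and 12.32 in paraquat heads, 12.29 and 13.05 in nicotine heads, and 12.36 and 13.37 in control heads. The muscle list lay between 12.57 and 12.86 in joint heads, 12.76 and 13.15 in paraquat heads, 12.70 and 12.74 in nicotine heads, and 12.68 and 13.43 in control heads, so these ranges overlapped in part.

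Of 5 tested midgut markers, 4 were above the others' median on joint replicate 1, with a median gap of 4.59. The midgut list summed to between 12.40 and 15.12 in joint heads, 12.17 and 12.19 in paraquat heads, 11.46 and 12.36 in nicotine heads, and 11.89 and 12.89 in control heads (log2 of the summed level), and Jon65Aii stayed below log2 4 on every array. The digestive protease gene betaTry was 14.29 on joint replicate 1 and 13.94 on joint replicate 2, and the family median of joint replicate 2 was 0.05 above the members' means. Fat body markers had a median gap of -1.32 on joint replicate 1, and their list summed to between 17.01 and 17.81 in joint heads, 17.37 and 17.39 in paraquat heads, 17.77 and 17.89 in nicotine heads, and 17.80 and 17.95 in control heads, with Fbp1 below log2 4 throughout. The ovary gene osk reached 7.65 on joint replicate 1 and 7.98 on nicotine replicate 1, and its list summed to between 5.26 and 7.85 in joint heads, 5.16 and 5.30 in paraquat heads, 5.15 and 8.11 in nicotine heads, and 5.19 and 5.23 in control heads. Of the list's 7 probe sets only 2 were tested, and the one besides osk had a gap of 0.05 on joint replicate 1. On every array 3 of the 7 were below log2 4, and Cp36 stayed below log2 4. The 3' minus 5' difference of the array's control probe sets was lowest on control replicate 3 (6.03), followed by joint replicate 1 (7.27). The other arrays lay between 7.33 and 8.10. The part of these markers in the family's values was not tested.

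**Figure D2:**
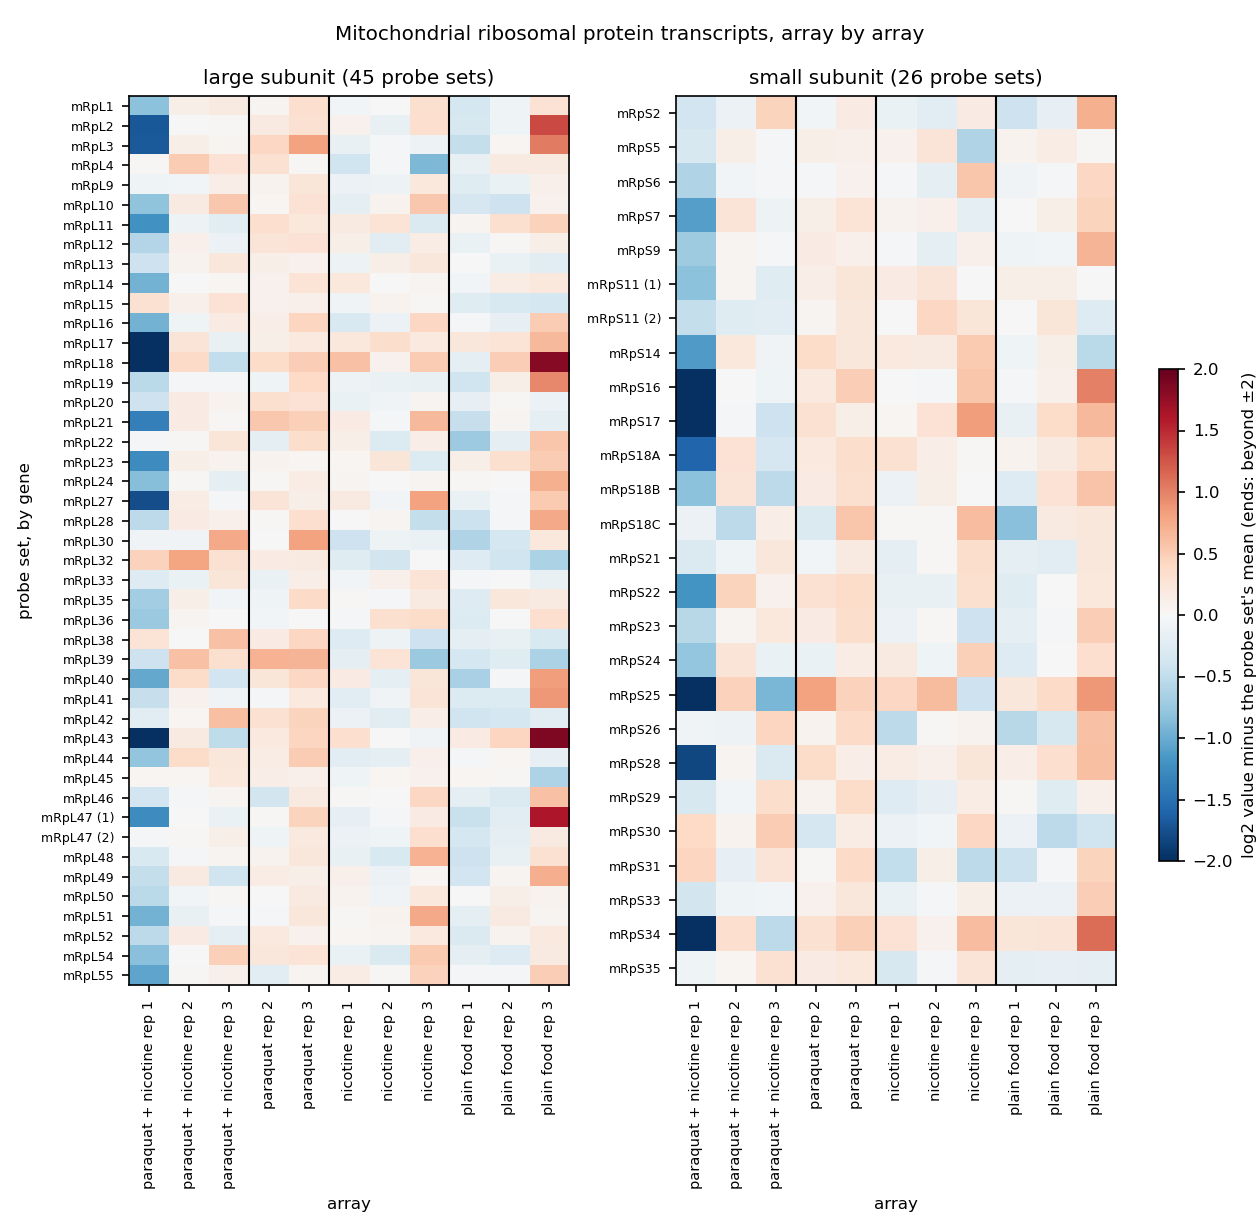
Colours give each family probe set's log2 value minus its mean over the 11 arrays, with arrays in columns and genes in rows for the large (left) and small (right) subunit; a number in brackets separates the probe sets of 1 gene. The blue column of joint replicate 1 runs through most genes of both subunits, with mRpL32, mRpL38, mRpL15, mRpS30 and mRpS31 as red exceptions.

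With paraquat, averaged over flies with and without nicotine, 1 of the 71 members rose at an adjusted p below 0.05 and 0 fell (limma with Benjamini-Hochberg adjustment over all 9104 probe sets). Over all probe sets 3.69% were called, 267 higher and 69 lower. At an unadjusted p below 0.05 there were 5 members, against 17.6% of all probe sets. The member was mRpL32, a large subunit protein whose bacterial relative carries the same number. It had 11.18, 11.52 and 11.03 in joint heads, 10.90 and 10.90 in paraquat heads, 10.48, 10.37 and 10.74 in nicotine heads, and 10.46, 10.33 and 10.10 in control heads. All 5 paraquat-exposed arrays were above all 6 arrays without paraquat, and all joint arrays were above both arrays with paraquat alone.

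mRpL32 rose by 0.66 ± 0.14 (log2, standard error) with paraquat, 1.58-fold, with a 95% interval of 0.35 to 0.97 and an adjusted p of 0.0311 in limma. The rise was 0.67 without joint replicate 1 (adjusted p 0.0420). The call was lost on leaving out paraquat replicate 2 (0.105) or 3 (0.162), nicotine replicate 1 (0.0889) or 2 (0.0712), or control replicate 2 (0.0750) or 3 (0.0611), although the estimate stayed between 0.59 and 0.71 over all 11 such fits. With the replicate number as a block it was 0.66 with an adjusted p of 0.0548. In joint heads it was 0.95 ± 0.18 above control, which missed the threshold (adjusted p 0.0673 in limma).

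In yeast and mouse, the precursor of this protein is cut to its mature form inside mitochondria by the m-AAA protease, whose subunits in the fly are encoded by Afg3l2 and Spg7. Both genes also rose with paraquat. Only RNA was measured, and a link between these changes and that of mRpL32 was not tested. Afg3l2 had 13.89, 13.47 and 13.77 in joint heads, 13.58 and 13.56 in paraquat heads, 12.50, 12.72 and 12.28 in nicotine heads, and 12.57, 12.57 and 12.32 in control heads. The paraquat-exposed arrays were all above the others, by 1.15 ± 0.13 on average (adjusted p 0.0025 in limma), and this call held with any 1 array left out. Spg7 had 10.61, 10.63 and 10.81 in joint heads, 10.74 and 10.73 in paraquat heads, 9.85, 10.01 and 9.64 in nicotine heads, and 10.26, 9.84 and 9.64 in control heads. It rose by 0.84 ± 0.14 (adjusted p 0.0125), a call lost without paraquat replicate 2 (0.0531) or 3 (0.0813).

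Other large subunit members had positive changes with paraquat that missed the threshold. mRpL38 had 10.42, 10.13 and 10.73 in joint heads, 10.30 and 10.56 in paraquat heads, 9.89, 10.04 and 9.74 in nicotine heads, and 9.95, 9.99 and 9.84 in control heads. Its groups with and without paraquat did not overlap, and the change was 0.52 ± 0.14 (adjusted p 0.0757). Without joint replicate 2 it was 0.60 and passed the threshold (adjusted p 0.0314). mRpL15 had 10.40, 10.21 and 10.39 in joint heads, 10.19 and 10.20 in paraquat heads, 10.04, 10.17 and 10.13 in nicotine heads, and 9.86, 9.80 and 9.74 in control heads. These groups did not overlap either, with control lowest and joint highest, and the change was 0.31 ± 0.10 (adjusted p 0.138). With mRpL32 these made 3 members that were higher without overlap in the 5 paraquat-exposed arrays than in the 6 others, and 0 were lower. Over all probe sets, 4.17% were higher and 1.99% lower without overlap.

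mRpL39, whose human relative resembles part of a threonyl-tRNA synthetase, had 9.16, 10.16 and 9.89 in joint heads, 10.27 and 10.25 in paraquat heads, 9.39, 9.84 and 8.84 in nicotine heads, and 9.23, 9.34 and 8.94 in control heads. Joint replicate 1 was as low as the arrays without paraquat, and the change of 0.74 ± 0.23 missed the threshold (adjusted p 0.125), while without that array it was 0.88 (adjusted p 0.0477). mRpL42 had 11.70, 11.97 and 12.54 in joint heads, 12.24 and 12.38 in paraquat heads, 11.81, 11.72 and 12.06 in nicotine heads, and 11.54, 11.58 and 11.73 in control heads. Its joint and nicotine ranges overlapped, and the change was 0.45 ± 0.16 (adjusted p 0.178). mRpL30 and mRpL4, the relatives of bacterial core proteins, had changes of 0.53 ± 0.24 and 0.40 ± 0.18 (adjusted p 0.286 and 0.289). Among members named for the small subunit the largest positive values were 0.34 for mRpS31, 0.28 for mRpS26 and 0.25 for mRpS30, none past the threshold.

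**Figure D3:**
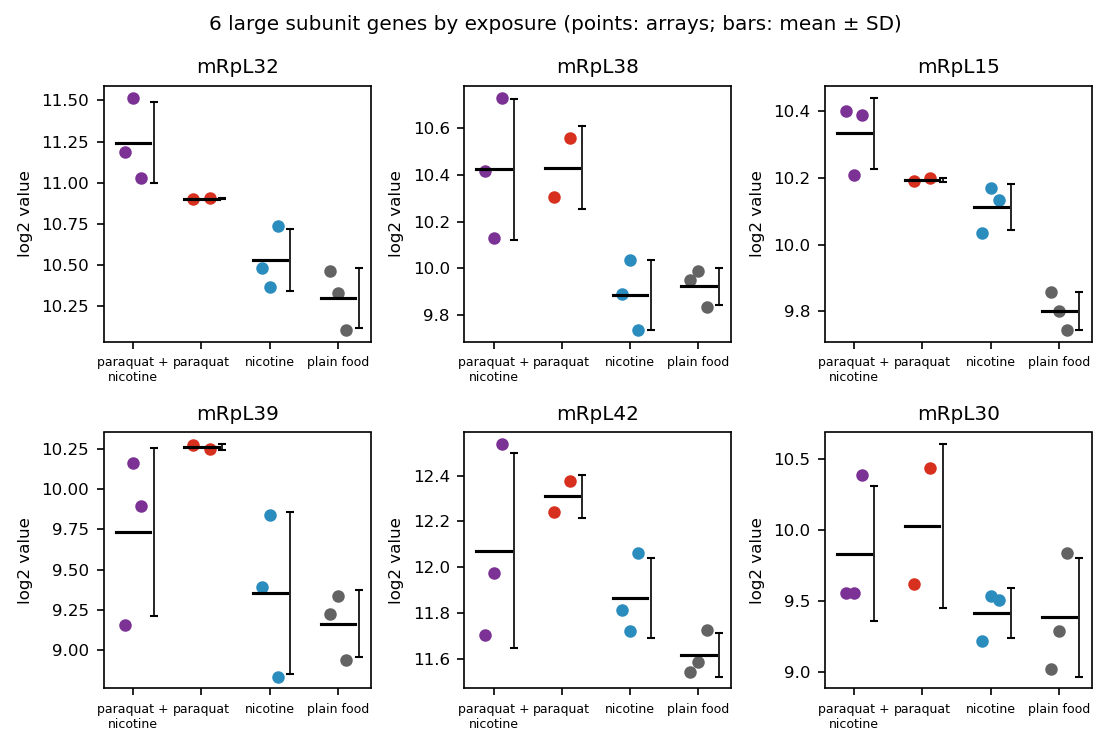
Log2 values of 6 large subunit genes in joint (paraquat + nicotine), paraquat, nicotine and plain food heads; points are arrays, horizontal bars means and whiskers SD. For mRpL32, mRpL38 and mRpL15 every array with paraquat lies above every array without it, while mRpL39, mRpL42 and mRpL30 overlap.

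The largest negative paraquat changes belonged to members that were low on joint replicate 1, and none passed the threshold. The values were -1.03 ± 0.73 for mRpL18, -0.86 ± 0.55 for mRpL43, -0.81 ± 0.56 for mRpS34, -0.65 ± 0.36 for mRpS17, -0.60 ± 0.40 for mRpL17 and -0.59 ± 0.52 for mRpS25 (adjusted p between 0.397 and 0.616). They were followed by mRpS28 (-0.48), mRpS16 (-0.47), mRpL27 (-0.40) and mRpL55 (-0.38). Without joint replicate 1 they were smaller, for example -0.36 for mRpL18, -0.38 for mRpL43, -0.29 for mRpS34 and -0.15 for mRpS25. mRpL47, related to a bacterial protein at the tunnel exit, had a pair of probe sets with opposite signs, -0.28 for the one shared among transcripts (suffix _a_at) and 0.09 for the other. The probe sets of mRpS11 gave -0.19 and -0.18.

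As a family, the paraquat change had a median of -0.06, with 30 members higher and 41 lower, against a median of -0.01 over all probe sets. Without joint replicate 1 the median was 0.05, with 44 higher and 27 lower. After centring each array on its median it was -0.12, with 22 higher and 49 lower, and over all probe sets it was then -0.08. Probe sets with the suffix _a_at or _s_at, which can match several transcripts or genes, made up 4 of the 71, and without them the median was -0.05. The large subunit had a median of -0.05 (0.10 without joint replicate 1) and the small subunit one of -0.10 (0.01 without it). The 14 small subunit probe sets with bacterial numbers had 3 higher and 11 lower (median -0.15), and the 12 with higher numbers had 7 higher and 5 lower (median 0.09). Without joint replicate 1 these were 6 higher and 8 lower (median -0.05) and 8 higher and 4 lower (median 0.23). For 58 of the 71 members the 95% interval of the paraquat change lay within 2-fold in both directions, as it did for 6738 of all probe sets tested.

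**Figure D4:**
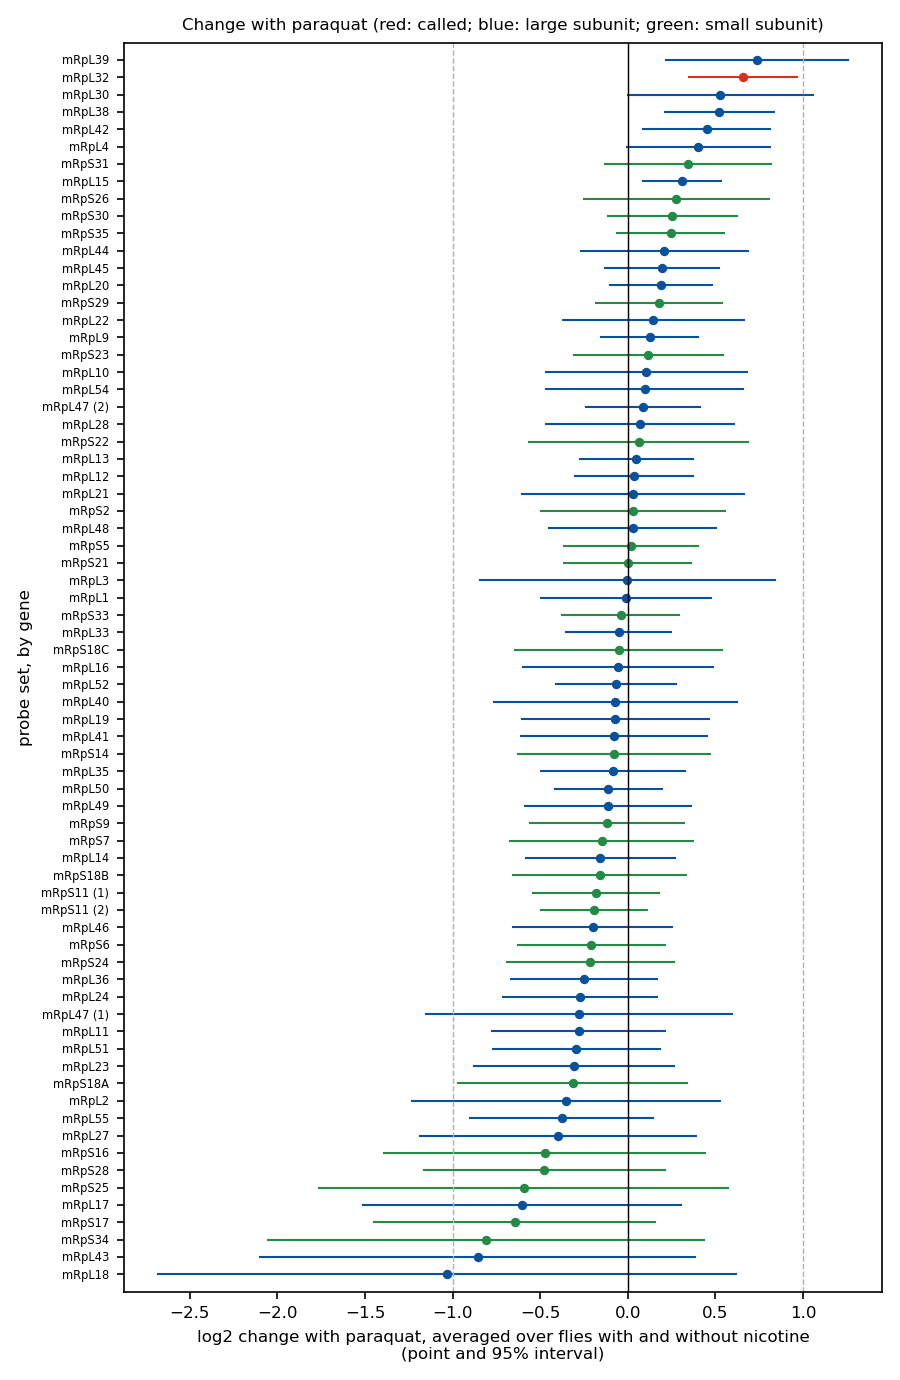
Change with paraquat of each family probe set, averaged over flies with and without nicotine, as log2 difference (point) with its 95% interval (line); dashed lines mark 2-fold. mRpL32 in red is the called member, and the widest intervals belong to mRpL18, mRpL43, mRpS34 and mRpS25.

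Without nicotine, paraquat against control called 0 of 71 members, as against 0.341% of all probe sets, and 5 members (7.04%) had an unadjusted p below 0.05 in limma, against 10.5% of all probe sets. The median was 0.11, with 51 members higher and 20 lower, and 0.01 over all probe sets. The direction was not stable. Without control replicate 1 the median was -0.0015, without control replicate 3 it was 0.30, without paraquat replicate 2 it was 0.20 and without paraquat replicate 3 it was 0.02. After centring each array on its median the family median was -0.01, with 34 higher and 37 lower, as centring moved each value by -0.11. mRpL39 had the largest value, 1.09 ± 0.34 on the log2 scale (adjusted p 0.265). With nicotine present, the joint exposure against nicotine also called 0 members, against 0.45% of all probe sets, and 6 (8.45%) had an unadjusted p below 0.05, against 11.5% of all probe sets. Its median was -0.26 with 20 members higher and 51 lower, but -0.02 with 35 higher and 36 lower without joint replicate 1.

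The joint exposure against control called 0 members (0.33% of all probe sets were called), and 11 members (15.5%) had an unadjusted p below 0.05 in limma, against 16.5% of all probe sets. That count was 7 without joint replicate 1 (9.86%, against 11.8% of all). The median was -0.21, with 21 members higher and 50 lower, against -0.02 with 33 higher and 38 lower when joint replicate 1 was left out. The positive end held mRpL32 (0.95), mRpS30 (0.67), mRpL39 (0.57), mRpL15 (0.53), mRpL38 (0.50) and mRpL42 (0.46). The negative end held mRpL18 (-2.10), mRpL43 (-1.94), mRpS34 (-1.68), mRpS25 (-1.60), mRpS16 (-1.12) and mRpS17 (-1.12). Without joint replicate 1, mRpL32 was at 0.98, while mRpL18 was at -0.76, mRpL43 at -0.98, mRpS34 at -0.63, mRpS25 at -0.71, mRpS16 at -0.40 and mRpS17 at -0.50.

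Between joint and control heads, 5 members were higher without overlap (mRpL15, mRpL32, mRpL38, mRpS30 and mRpS35), and 9.18% of all probe sets were. mRpL11, mRpL23 and mRpS28 were lower without overlap, and 10.5% of all probe sets were. mRpS30, whose mammalian relative sits in the large subunit despite its name, had 10.80, 10.47 and 10.91 in joint heads, 10.07 and 10.55 in paraquat heads, 10.29, 10.34 and 10.81 in nicotine heads, and 10.28, 9.88 and 10.00 in control heads. Its joint values overlapped those of nicotine heads. mRpL11 had 8.22, 9.33 and 9.19 in joint heads, 9.76 and 9.63 in paraquat heads, 9.60, 9.70 and 9.13 in nicotine heads, and 9.48, 9.74 and 9.88 in control heads.

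**Figure D5:**
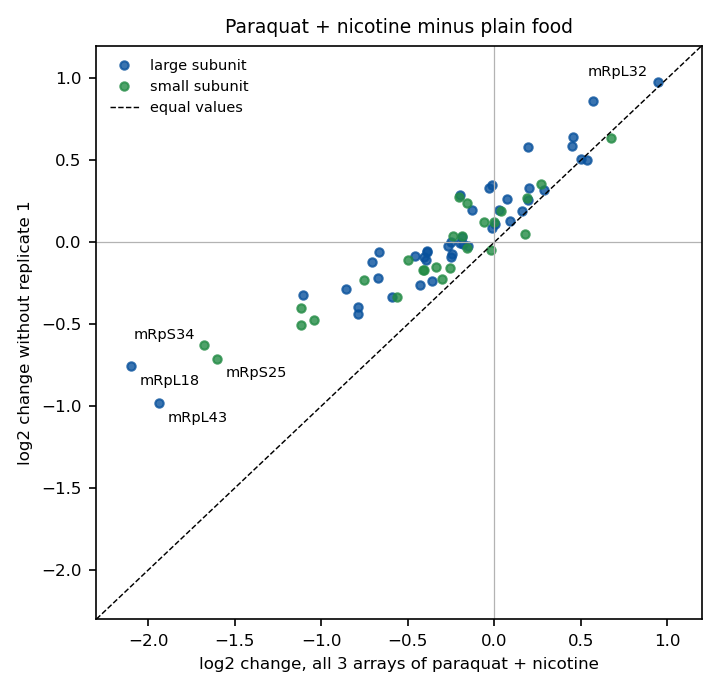
Joint exposure minus plain food for each family probe set, as log2 change with all 3 joint arrays (horizontal) and without joint replicate 1 (vertical); the dashed line marks equal values. mRpL18 lies at -2.10 against -0.76 and mRpL43 at -1.94 against -0.98, while mRpL32 stays near the line at 0.95 and 0.98.

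Nicotine alone against control called 0 members and 0% of all probe sets, and 1 member had an unadjusted p below 0.05, against 1.97% of all probe sets. The median was 0.01, with 38 members higher and 33 lower. With 1 array left out it ranged from -0.10 (without control replicate 1) to 0.13 (without control replicate 3), and its sign also turned without control replicate 2 or nicotine replicate 3. For 52 members the 95% interval lay within 2-fold in both directions. Averaged over flies with and without paraquat, nicotine called 0 members and 0% of all probe sets (3 members had an unadjusted p below 0.05, against 3.69% of all), with a median of -0.17, 13 higher and 58 lower. Without joint replicate 1 that median was -0.06. The largest positive values were 0.42 for mRpS30, 0.29 for mRpL32 and 0.23 for mRpL15, and the largest negative ones -1.08 for mRpL43, -1.07 for mRpL18 and -1.01 for mRpS25. They were followed by mRpS34 (-0.87), mRpL3 (-0.71) and mRpS16 (-0.64). Leaving out joint replicate 1 gave -0.60 for mRpL43, -0.40 for mRpL18, -0.56 for mRpS25, -0.34 for mRpS34, -0.41 for mRpL3 and -0.29 for mRpS16. The positive side also held mRpL45 (0.09), mRpL10 (0.09) and the probe set of mRpL47 without that suffix (0.07).

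On the paraquat background, adding nicotine (joint against paraquat) gave a median of -0.36, with 4 members higher and 67 lower, against -0.06 over all probe sets. It called 0 members and 0% of all probe sets, and 3 members had an unadjusted p below 0.05 in limma, against 3.02% of all. Without overlap, 21 members were lower, and 13.2% of all probe sets were; mRpL15 and mRpL32 were higher, and 5.01% of all probe sets were. Leaving out joint replicate 1 brought the family median to -0.12, with 17 higher and 54 lower (76.1%). Over all probe sets the median was then -0.04, with 58.9% lower. After centring each array on its median, with all arrays kept, the family median was -0.28, with 12 higher and 59 lower (83.1%). Over all probe sets the median was then 0.02, with 46.7% lower.

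The interaction, the paraquat change with nicotine minus that without it, called 0 members and 0% of all probe sets, and 2 members had an unadjusted p below 0.05, against 1.23% of all. Its median was -0.38, with 5 members higher and 66 lower, and -0.13 without joint replicate 1, with 19 higher and 52 lower. With 1 array left out it ranged from -0.52 to -0.13. Without both joint replicate 1 and control replicate 3 it was -0.30 (7 higher, 64 lower), against -0.03 over all probe sets. With array weights it was -0.21 (12 higher, 59 lower), against -0.06 over all. After median centring it was -0.29 (9 higher, 62 lower), against 0.04 over all. The largest negative values were -1.51 for mRpL18, -1.47 for mRpS25, -1.35 for mRpL21, -1.33 for mRpS34, -1.14 for mRpS17 and -1.09 for mRpS14. With joint replicate 1 left out, these were -0.17 for mRpL18, -0.58 for mRpS25, -0.87 for mRpL21, -0.28 for mRpS34, -0.53 for mRpS17 and -0.69 for mRpS14. The 5 positive members were mRpL4 (0.63), mRpS31 (0.26), mRpL32 (0.11), mRpS2 (0.05) and mRpL38 (0.03). The 95% interval lay within 2-fold in both directions for 17 of the 71 members, so the limits on an interaction are wide for most.

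Paraquat changes of other mitochondrial gene lists were set beside those of the family. All 13 tested mitochondrial aminoacyl-tRNA synthetases had positive values (median 0.36, against -0.01 over all probe sets). Of them 2 passed the threshold, and 3.69% of all probe sets did. AspRS-m, which charges the aspartate tRNA, had 8.81, 8.64 and 9.15 in joint heads, 8.72 and 9.37 in paraquat heads, 7.98, 7.99 and 7.87 in nicotine heads, and 8.19, 8.18 and 7.83 in control heads, a rise of 0.95 ± 0.16 (adjusted p 0.0127 in limma). Every array with paraquat was above every array without it. Slimp, a seryl-tRNA synthetase paralogue of insect mitochondria, rose by 0.92 ± 0.18 (adjusted p 0.0268), and LeuRS-m had 0.65 ± 0.18 (adjusted p 0.0926). The call of AspRS-m was lost without paraquat replicate 3 (0.0813). That of Slimp was lost without paraquat replicate 2 (0.0665) or 3 (0.164), or without nicotine replicate 1 (0.0625) or 3 (0.0638). The Slimp call was also lost without control replicate 1 (0.0588) or 2 (0.0730), and with no low-value filter (0.0938).

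Of 12 mitochondrial chaperones and proteases, 11 had positive values (median 0.41). Among them 3 passed the threshold, namely Afg3l2, Spg7 and Phb2, against 3.69% of all probe sets. Phb2, a prohibitin of the inner membrane that in yeast assembles with the m-AAA protease, rose by 0.45 ± 0.10 (adjusted p 0.0478). That call was lost when any array but joint replicate 1 was left out (adjusted p up to 0.256), with the replicate block (0.0539), after centring (0.0763) and with the 3' minus 5' covariate (0.0638). Among 10 genes for mitochondrial DNA and RNA, 9 had positive values and 0 passed, with mtSSB, the single-stranded DNA binding protein, at 0.57 ± 0.15 (adjusted p 0.0695), mtDNA-helicase at 0.30 and bsf at 0.29. The 8 translation factors had a median of 0.14 and 0 calls, with mIF2 at 0.49, mEFTu2 at 0.46 and mEFTu1 at 0.34. The 11 import genes had a median of 0.02 and 0 calls, with ttm50 at 0.54, Tom70 at 0.40 and blp at 0.25.

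Oxidative phosphorylation genes and cytosolic ribosomal proteins had mostly negative values. Of 63 oxidative phosphorylation probe sets, 9 had positive and 54 negative paraquat values (median -0.16, and -0.08 without joint replicate 1) with 0 calls. COX7AL (1.73, adjusted p 0.0755), ND-B12 (0.67, adjusted p 0.0615) and UQCR-11L (-1.21, adjusted p 0.270) had the smallest p-values. Of 33 cytosolic ribosomal protein probe sets, 4 had positive and 29 negative values (median -0.14, and -0.08 without joint replicate 1) with 0 calls, and RpL3 (-0.26), RpL15 (-0.19) and RpL34a (-0.61) were among them. tko had -0.56 ± 0.45 (adjusted p 0.588). Of 5 probe sets for 4 regulator genes, the transcription factor gene foxo fell by 0.65 on the log2 scale (adjusted p 0.0396), a call lost when any array but joint replicate 1 or control replicate 2 was left out (adjusted p up to 0.170), with the replicate block (0.0579) or with no low-value filter (0.0897), while Ets97D, the fly relative of GABPA, had 0.39 and Dref 0.17. Differences between these lists were not tested.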

How the data were processed

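RNA from pooled heads was amplified from the 3' end, labelled with biotin and hybridised to Affymetrix arrays, per the labels' protocols. The deposited values are log2 values per probe set, and the submitters' processing notes name GCRMA, whose version is not given in the sources used here. GCRMA equalises the distributions of the arrays, so a shift shared by all genes is not measured. A paraquat replicate with degraded RNA did not enter the normalization, per the series' design text, and is not analysed here. The number of arrays limits the precision.

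From there, 183 control probe sets and probe sets under log2 4 on all but 1 array or on all arrays were left out. A limma 3.58.1 model (R 4.3.3) with 1 mean per group was fitted to all 11 arrays (7 residual and 2.48 prior degrees of freedom). It gave 8 contrasts, two-sided, each with Benjamini-Hochberg adjustment over 9104 probe sets and a threshold of 0.05. A trial of the model on simulated data used independent noise of equal spread on every array, so it does not cover arrays that stand apart. Errors after ± are standard errors. Symbols come from the platform annotation and the RefSeq table of Release 6, and all 71 matched. Probe sets of several genes were left out of the family and the lists, among them 2 that include a family gene. In the fit they were kept, and 228 of them were among the 9104 tested. No coordinates are printed, since no build is named for these arrays.

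The members, lists and position groups were chosen with earlier results of these data known. Members are named where called, among the 10 largest rises and 10 largest falls with paraquat, among the 6 largest of each for nicotine averaged, joint against control and the interaction, or where a gene has more than 1 probe set. List genes are named where called or among the 3 smallest p-values. Members lowest or highest on an array, without overlap, or in a position group were named after their values were seen.

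Replicate numbers were not taken to pair arrays, since the labels mark no shared batch. Deviations from group means of arrays with the same number correlated between -0.067 and 0.497 over 15 pairs. Pairs with different numbers ranged from -0.497 to 0.333, so pairs with the same number tended to be higher. Whether arrays with the same number shared a batch was not tested. Alternatives were other filters, an eBayes variance trend, only the arrays compared, median centring, array weights, a replicate block, the 3' minus 5' difference as a covariate, 1 probe set per gene, and each array left out in turn. Leaving out control replicate 3 and joint replicate 1 together was added after seeing the data.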

Additional observations from a re-analysis of the deposited data

How the results depend on the processing

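The count of members called with paraquat averaged, 1 in the fit reported, was 8 with array weights (mRpL15, mRpL30, mRpL32, mRpL38, mRpL39, mRpL42, mRpS26 and mRpS35, where 17.9% of all probe sets were called), 0 after median centring, 0 with the replicate block and 0 without both joint replicate 1 and control replicate 3. Over all probe sets, 3.77% were called after centring, 3.94% with the block and 3.22% without both arrays. Leaving out 1 array at a time gave 0 to 2 members, where between 0.582% and 6.44% of all probe sets were called. Array weights also called 4 members for paraquat against control (8.4% of all probe sets), 1 for joint against nicotine (3.43% of all) and 2 for joint against control (3.05% of all). The variance trend called 1 for joint against control (0.791% of all). In the fit reported, 0 members had been called in these contrasts. The weights were 0.231 for joint replicate 1 and 0.280 for control replicate 3. With no low-value filter the adjusted p was 0.0676 for mRpL32 and 0.0374 for mRpL15, and after centring it was 0.0611 for mRpL32. Among the genes named, the replicate block ended the calls of mRpL32, Phb2 and foxo and changed no other. The labels give the arrays of a block only a shared number.

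Without both arrays the family median of joint against control was 0.16, and with paraquat averaged tko was at 0.0455, mRpS16 at 0.0471, mRpL27 at 0.0074 and mRpL47 (the _a_at probe set) at 0.24. That probe set was at 0.15 with array weights and between -0.47 and 0.0429 with 1 array left out. For nicotine averaged, mRpL45 was at -0.0170 with array weights, -0.0397 with the covariate and -0.00046 without both arrays. With 1 array left out mRpL45 lay between -0.0155 and 0.15 and mRpL10 between -0.0560 and 0.28. For the interaction, mRpS2 was at -0.11 with the covariate and -0.10 without both arrays, and mRpS31 at -0.0927 without both. With 1 array left out, mRpS2 lay between -0.28 and 0.28, mRpL38 between -0.12 and 0.18, and mRpL32 between -0.0264 and 0.22. The cause of these turns was not tested.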
